A study of Mus musculus with 12 samples.

Results

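Inflammasomes are cytosolic complexes in which a sensor protein detects a microbial product or cell damage and recruits caspase-1, directly or through the adaptor ASC. Active caspase-1 matures the cytokines IL-1β and IL-18 and cleaves gasdermin D, whose fragment opens pores in the plasma membrane and can end in pyroptosis. Gut dendritic cells (DCs), which sample bacteria and food antigens below the epithelium and carry them to T cells, lie close to the flagellin, toxins and lipopolysaccharide that these sensors detect. The 10 genes described here code for the sensors NLRP3, NLRC4, AIM2, NLRP1B, NAIP2 and NAIP5, the adaptor ASC (*Pycard*), the caspases CASP1 and CASP4 (caspase-11, a sensor of cytosolic lipopolysaccharide) and the pore protein gasdermin D (*Gsdmd*). They were chosen as a list of names and matched to Ensembl mouse identifiers, and all 10 were found among the 53801 genes counted. All 10 also passed the count minimum of 5 in at least 1 sample, as did 20580 genes in all.

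RNA from 2 sorted DC subsets of the mouse small intestine was sequenced, namely CD103+CD11b- and CD103-CD11b+ DCs from wild type (WT) mice and from mice labelled Cbfb-cKO. The cKO mice carried floxed *Cbfb* alleles and a Cre recombinase under the CD11c promoter. Cbfβ is the partner that Runx transcription factors need to bind DNA stably. Each of the 4 groups held 3 samples, 12 in all, and the strain label was a mixed background throughout. The study describes 3 samples from 3 different mice, without saying whether the 2 subsets came from the same mice. The labels give neither the age of the mice nor whether the WT mice carried the Cre transgene. The cells had been gated as CD45+CD64-CD11c+MHC-II+, and this Cre is known to be active in some gut T cells as well. The labels do not say which part of *Cbfb* the Cre removes, and the study's genotyping primers are named for a single exon of it, so counts over the whole gene do not check the genotype, and its level overlapped between genotypes (WT 199 to 228 CPM and cKO 215 to 290.2 CPM in CD103+CD11b- DCs, WT 161 to 217 CPM and cKO 169.6 to 273 CPM in CD103-CD11b+ DCs).

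Between 2161929 and 5863484 reads per sample fell on genes. All levels below are CPM (read counts scaled to a common library total) after TMM scaling. On that scale a count of 3 stood at 0.485 to 1.53 CPM, and such limits cover counting error only. The labelled subsets were checked by their sorting markers. The mean of *Itgae* (CD103) in WT was 767 ± 142 (SD, n = 3) CPM in CD103+CD11b- DCs and 189.7 ± 79.4 (SD, n = 3) in CD103-CD11b+ DCs, and that of *Itgam* (CD11b) was 4.32 ± 0.590 (SD, n = 3) and 90.6 ± 13.2 (SD, n = 3). In cKO the mean of *Itgae* was 699 ± 67.2 (SD, n = 3) and 50.4 ± 27.2 (SD, n = 3) CPM, and that of *Itgam* 8.14 ± 2.57 (SD, n = 3) and 164 ± 52.4 (SD, n = 3). *Fcgr1*, which codes for the excluded marker CD64, had a mean of 7.56 ± 3.6 (SD, n = 3) CPM in WT CD103-CD11b+ DCs. In such bulk samples fewer cells of a type and less RNA per cell cannot be told apart.

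Read per kilobase of exon, *Nlrp3*, the sensor of potassium loss and membrane damage, was the member with the most reads in WT DCs of both subsets. Its level was 39.5 ± 6.38 (SD, n = 3, as for all levels per kb) CPM per kb in CD103+CD11b- DCs against 66.1 ± 20.0 in the other subset, and in neither did its samples overlap those of the next gene. *Nlrc4*, the adaptor that NAIP proteins recruit, stood last in all 4 groups, from 1.01 ± 0.131 CPM per kb in cKO CD103+CD11b- DCs to 10.6 ± 0.609 in cKO CD103-CD11b+ DCs, where it overlapped *Pycard*. Between these ends, *Gsdmd*, *Nlrp1b* and *Aim2* followed *Nlrp3* in WT CD103+CD11b- DCs with 24.3, 29.3 and 22.5 CPM per kb. *Gsdmd* and *Aim2* overlapped there, while *Nlrp1b* stood above both.

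The order was not the same in the other groups. In cKO CD103+CD11b- DCs *Nlrp1b* (36.2 ± 3.76 CPM per kb), *Gsdmd* (33.8 ± 8.65) and *Nlrp3* (29.1 ± 8.88) led the list, and each overlapped the next. In WT CD103-CD11b+ DCs *Nlrp1b*, *Aim2*, *Casp1*, *Casp4*, *Naip2*, *Pycard* and *Naip5* lay between 12 and 16.7 CPM per kb and overlapped from each gene to the next. In cKO CD103-CD11b+ DCs *Nlrp3* had 78.9 ± 45.3 CPM per kb, the widest spread of any member there, and overlapped *Gsdmd* with 48.1 ± 7.09. The plot of levels per exon length shows the 4 groups side by side.

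**Figure D1:**
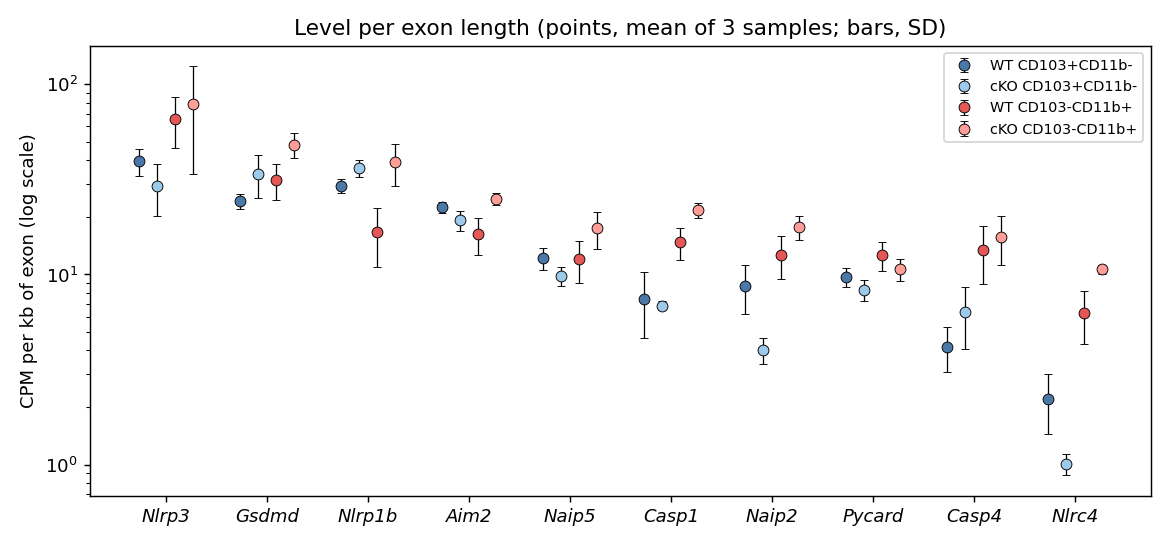
Mean level of each member in CPM per kb of exon (log axis) in the 4 groups, with bars of 1 SD over 3 samples and members ordered by their mean over all samples. *Nlrc4* was lowest in every group, from 1.01 to 10.6 CPM per kb, while *Nlrp3* led in 3 groups and *Nlrp1b* in cKO CD103+CD11b- DCs.

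The first question was which members differed between cKO and WT in CD103-CD11b+ DCs. *Nlrp1b*, the sensor cleaved and activated by the anthrax lethal factor protease, rose 2.32-fold in the cKO cells. Its level was 144, 101 and 71.3 CPM in the 3 WT samples and 189, 238 and 311 CPM in the 3 cKO samples. Every cKO sample lay above every WT sample. The log2 fold change was 1.22 (SE 0.24, adjusted p = 0.0337) in the quasi-likelihood F-test of edgeR, whose p-values, adjusted after Benjamini and Hochberg over all genes, are the adjusted p given from here on. Its SE is the absolute log2 fold change divided by the square root of F, so it is not separate from the test. *Nlrp1b* was the only 1 of the 10 members called at an adjusted p under 0.05 and a fold change over 1.3, against 1.61% of the 20580 genes tested (1.11% higher and 0.5% lower).

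The call held without WT replicate 1 or cKO replicate 1 and did not hold without each of the other 4 samples. The adjusted p of *Nlrp1b* was 0.102 without WT replicate 2, 0.0773 without WT replicate 3, 0.0867 without cKO replicate 2, 0.0785 without cKO replicate 3 and 0.204 in a fit to the 6 samples compared. The log2 fold change of *Nlrp1b* stayed between 1.01 and 1.53 when single samples were left out.

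The other 5 sensors were also higher on average in cKO CD103-CD11b+ DCs, with values short of the threshold. *Aim2*, the sensor of cytosolic double-stranded DNA, had 71.4, 47.6 and 51.8 CPM in WT and 87.1, 81.8 and 94.3 CPM in cKO samples. *Nlrc4* had 40.9, 23.7 and 25.6 CPM in WT and 50.1, 54.5 and 49.0 CPM in cKO samples. The groups did not overlap for either gene. The log2 fold change was 0.62 (SE 0.16, adjusted p = 0.0792) for *Aim2* and 0.76 (SE 0.26, adjusted p = 0.167) for *Nlrc4*. *Aim2* passed the threshold with DESeq2 (adjusted p = 0.0120), with a replicate block (adjusted p = 0.0389) and without WT replicate 1 (adjusted p = 0.0196), while *Nlrc4* passed in none of these.

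*Naip2*, which binds the rod protein of bacterial secretion systems, and *Naip5*, which binds flagellin, overlapped between the genotypes in CD103-CD11b+ DCs. Their log2 fold changes were 0.48 (SE 0.23, adjusted p = 0.317) and 0.54 (SE 0.20, adjusted p = 0.206). *Nlrp3* had 283, 181 and 341 CPM in WT and 189, 242 and 530.3 CPM in cKO samples, with cKO replicate 3 far above the rest. Its log2 fold change was 0.25 (SE 0.37, adjusted p = 0.767), and -0.32 without that library, which is also the shallowest of the 12. The 7 markers of the DC gate summed to 7400 CPM in it against 4534 and 4596 CPM in the other cKO CD103-CD11b+ samples, and it held the highest *Nlrp1b* level of the group.

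Among the effectors, *Gsdmd* had 82.8, 85.0 and 56.1 CPM in WT and 101, 133 and 109 CPM in cKO CD103-CD11b+ DCs. *Casp1* had 27.0, 19.7 and 19.8 CPM in WT and 31.2, 30.9 and 36.2 CPM in cKO samples. Neither gene's groups overlapped, and neither passed the test, with log2 fold changes of 0.61 (SE 0.21, adjusted p = 0.166) for *Gsdmd* and 0.56 (SE 0.26, adjusted p = 0.294) for *Casp1*. *Casp4* and *Pycard* overlapped between genotypes, with log2 fold changes of 0.23 and -0.24. In all, 5 of the 10 members had groups that did not overlap, each of them higher in cKO, against 20.1% of all genes tested, and 5 of 10 had an unadjusted p under 0.05, against 17.4%. The members' median log2 fold change was 0.55 and that of all genes was -0.06.

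**Figure D2:**
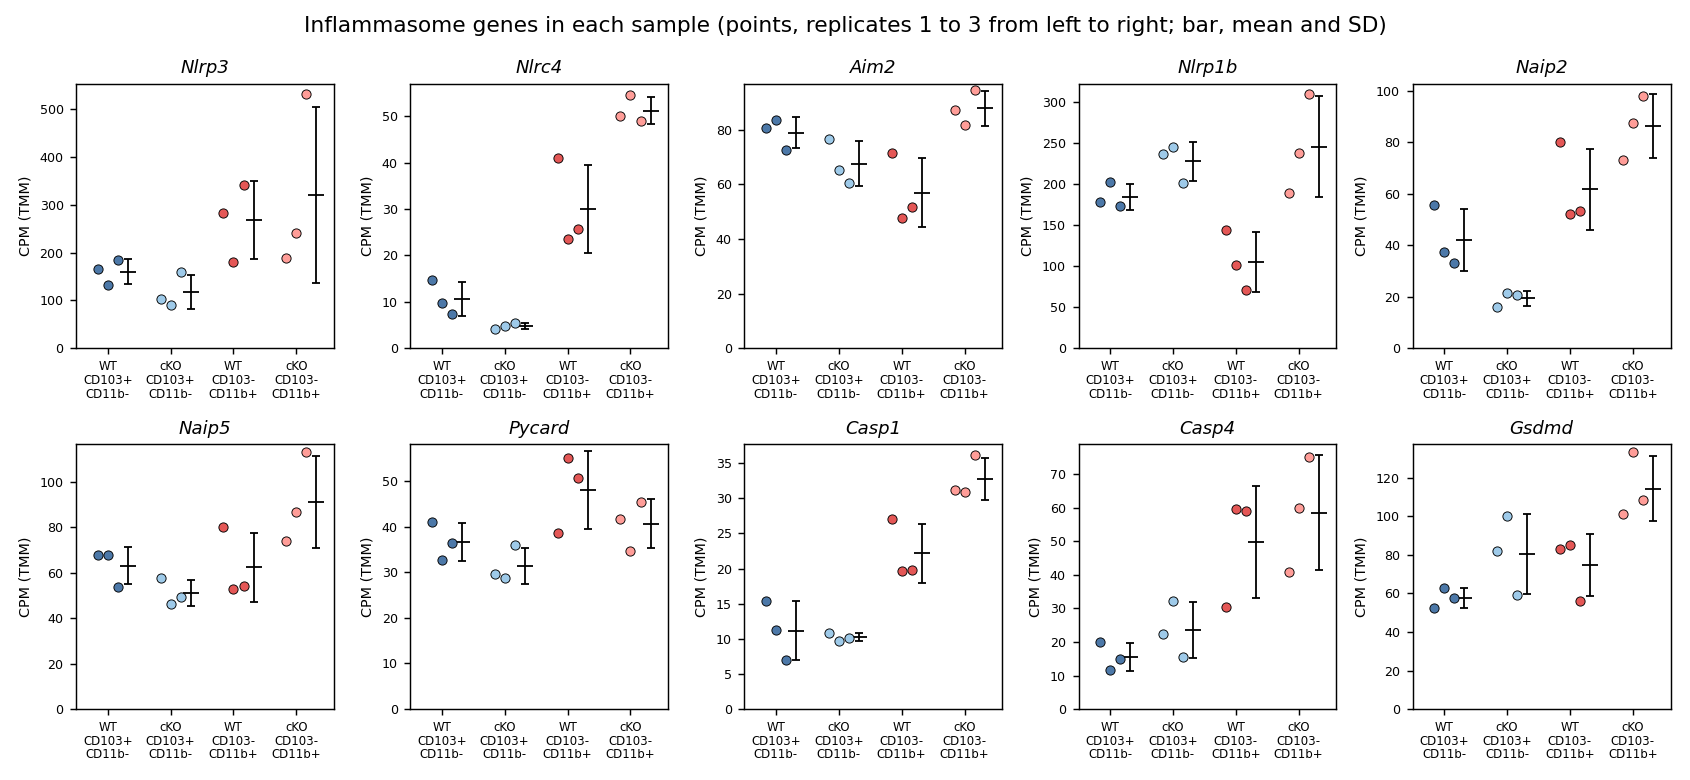
Level of each member in CPM (linear axes from 0) in each of the 12 samples, with the mean and SD of each group beside its points. *Nlrp1b* lies higher in all 3 cKO than in all 3 WT samples of CD103-CD11b+ DCs, and *Nlrc4* and *Naip2* lie lower in all 3 cKO than in all 3 WT samples of CD103+CD11b- DCs.

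Markers of DCs and of other cells were measured in the same libraries. *Itgae*, the gene of the sorting marker CD103, fell in cKO CD103-CD11b+ DCs with a log2 fold change of -1.89 (SE 0.36, adjusted p = 0.0301), the 1 of 8 cDC1 markers called, while the other 7 had positive values that were not called. The 10 B cell markers summed to 142 to 344 CPM in WT and 255 to 739 CPM in cKO CD103-CD11b+ DCs, and 2 of the 10 (*Ms4a1* and *Bank1*) were called higher in cKO. Of the 10, 9 had positive log2 fold changes and 1 a negative value, with a median of 1.36. The 11 macrophage markers summed to 452 to 964 CPM in WT and 553 to 954 CPM in cKO, with 1 of 11 (*Adgre1*) called higher. Of the 11, 6 had positive and 5 had negative log2 fold changes, with a median of 0.0016. The 10 epithelial markers summed to 214 to 364 CPM in WT and 63.1 to 105 CPM in cKO, with none of the 9 tested called and 4 of 9 at an unadjusted p under 0.05. The 9 monocyte and neutrophil markers summed to 202 to 256 CPM in WT and 218 to 254 CPM in cKO, with 1 of the 7 tested called higher, the neutrophil gene *Csf3r* with 39.3 ± 2.96 (SD, n = 3) CPM in WT and 107 ± 25.1 (SD, n = 3) CPM in cKO. *Cxcr2* had 5.65 ± 1.72 (SD, n = 3) CPM in WT and 14.3 ± 2.52 (SD, n = 3) CPM in cKO, without overlap and not called, and *Fcnb* was at 0 in every sample. Of the 7 tested, 3 had positive and 4 had negative log2 fold changes, with a median of -0.11. No marker of the B cell or macrophage list was at 0 in all samples of either group. The part of these cells in the level of *Nlrp1b* was not tested.

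The same question was asked in CD103+CD11b- DCs. There *Nlrc4* and *Naip2* had levels lower by 2.17-fold and 2.16-fold in the cKO cells, with adjusted p-values above the threshold. *Naip2* had 55.7, 37.5 and 33.0 CPM in the WT samples and 16, 21.5 and 20.7 CPM in the cKO samples. *Nlrc4* had 14.7, 9.84 and 7.44 CPM in the WT samples and 4.22, 4.88 and 5.48 CPM in the cKO samples, the latter from 19, 20 and 14 reads. For both genes every cKO sample lay below every WT sample. The log2 fold change was -1.11 (SE 0.24, adjusted p = 0.0608) for *Naip2* and -1.12 (SE 0.29, adjusted p = 0.122) for *Nlrc4*.

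For *Naip2* the call depended on the setting. The adjusted p was 0.0319 with no filter on low counts, 0.0427 with genes of 5 or more counts in every sample, 0.00584 with DESeq2 and 0.0476 without WT replicate 3. For *Nlrc4* no setting tried in CD103+CD11b- DCs gave a call. None of the 10 members was called by edgeR, against 1.02% of all genes tested (0.224% higher and 0.797% lower), while 3 of 10 had an unadjusted p under 0.05 (*Nlrc4*, *Naip2* and *Gsdmd*) against 10.5%. DESeq2 called 1 member lower. The groups of 2 of 10 members did not overlap, against 18.1% of all genes.

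*Naip5*, which lies next to *Naip2* on chromosome 13, had 68.0, 67.7 and 53.7 CPM in WT and 57.7, 46.4 and 49.3 CPM in cKO CD103+CD11b- DCs. These groups overlapped, and the log2 fold change was -0.30 (SE 0.20, adjusted p = 0.737). Their paralogs *Naip1* and *Naip6*, named after their values were seen, had log2 fold changes of 0.71 (SE 0.63, adjusted p = 0.825) and -0.08 (SE 0.15, adjusted p = 0.951). The ratio of *Naip2* to *Naip5* counts, a measure chosen after the values were seen, had a mean of 0.663 ± 0.139 (SD, n = 3) in WT and 0.387 ± 0.0976 (SD, n = 3) in cKO CD103+CD11b- DCs. It was 0.819, 0.554 and 0.614 in the WT samples and 0.277, 0.463 and 0.421 in the cKO samples, without overlap. In CD103-CD11b+ DCs *Naip2* and *Naip5* had nearly equal counts, with ratios of 0.998, 0.981 and 0.984 in WT and 0.991, 1.01 and 0.865 in cKO samples. An exact two-sided permutation test gave p = 0.1 between genotypes in CD103+CD11b- DCs, the smallest that 3 against 3 samples allow, and p = 0.9 in CD103-CD11b+ DCs. Of all stretches of 50 bases in the exons, 19.1% of those of *Naip2* and 36.9% of those of *Naip5* also occur in another gene, most often *Naip1* and *Naip6*, so reads can be lost or shared between these paralogs and their levels are uncertain.

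The remaining members did not pass the test in CD103+CD11b- DCs either. The *Nlrp1b* level was 178, 203 and 173 CPM in WT and 237, 246 and 201 CPM in cKO samples, with a log2 fold change of 0.30 (SE 0.23, adjusted p = 0.783). The WT and cKO samples touched, in that 1 WT sample lay above 1 cKO sample. *Gsdmd* had 52.7, 62.9 and 57.6 CPM in WT and 82.1, 100.1 and 59.1 CPM in cKO samples, with cKO replicate 3 inside the WT range and a log2 fold change of 0.48 (SE 0.21, adjusted p = 0.450). *Nlrp3*, *Casp4*, *Aim2*, *Pycard* and *Casp1* overlapped between genotypes, with log2 fold changes of -0.45, 0.62, -0.22, -0.23 and -0.10. The members' median was -0.22 and that of all genes was -0.02.

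*Tlr5*, the receptor for flagellin outside the cell, fell in the same cKO CD103+CD11b- samples. It had 24.6, 15.3 and 12 CPM in WT samples from 72, 67 and 74 reads, and 1.11, 0.732 and 0 CPM in cKO samples from 5, 3 and 0 reads. The fitted log2 fold change was -4.57 (SE 0.64, adjusted p = 0.00938), a size that depends on the few reads in the cKO libraries. The plot of the flagellin and secretion system genes sets *Tlr5* beside *Nlrc4* and *Naip2*.

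**Figure D3:**
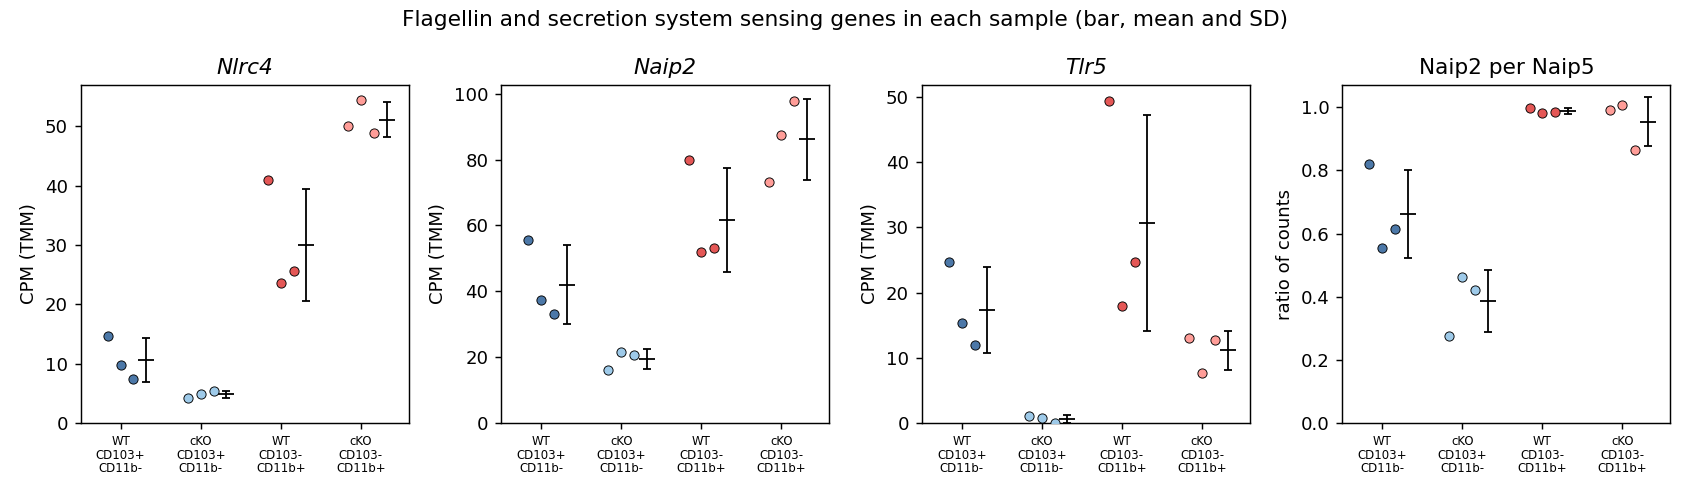
Level in CPM of *Nlrc4*, *Naip2* and *Tlr5* and the ratio of *Naip2* to *Naip5* counts in each of the 12 samples (linear axes from 0), with the mean and SD of each group. All 4 measures are lower in the 3 cKO than in the 3 WT samples of CD103+CD11b- DCs. The ratio reuses the *Naip2* counts, and *Naip5*, not shown alone, overlapped between genotypes there. In CD103-CD11b+ DCs *Tlr5* is also lower in all 3 cKO than in all 3 WT samples. The ratio lies between 0.865 and 1.01 in the 6 samples of CD103-CD11b+ DCs.

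Markers of CD11b+ conventional DCs (cDC2s) and of other cells were measured there too. The 7 cDC2 markers summed to 391 to 707 CPM in WT and 87.6 to 161 CPM in cKO CD103+CD11b- DCs, with 3 of the 7 (*Sirpa*, *Irf4* and *Cd209a*) called lower, none at 0 in all samples, and a median log2 fold change of -1.71. *Itgam* (CD11b), the 1 of the 7 with a positive log2 fold change, had 4.32 ± 0.590 (SD, n = 3) CPM in WT and 8.14 ± 2.57 (SD, n = 3) CPM in cKO, higher in every cKO sample and not called, with a log2 fold change of 0.92 (SE 0.30, adjusted p = 0.239). The 8 cDC1 markers summed to 4871 to 7144 CPM in WT and 6398 to 8057 CPM in cKO, with none of the 8 called. The 10 epithelial markers summed to 115 to 276 CPM in WT and 24.6 to 123 CPM in cKO, with 1 of 9 tested called lower while the list's median log2 fold change was 1.31. The 10 B cell markers summed to 45.1 to 88.3 CPM in WT and 102 to 135 CPM in cKO, without overlap, with 1 of 10 (*Bank1*) called higher and a median log2 fold change of -0.30. The 11 macrophage markers summed to 72.1 to 114 CPM in WT and 26.6 to 114 CPM in cKO, with none called. Of the 11, 6 had positive and 5 had negative log2 fold changes, with a median of 0.12. Among the negative, *Csf1r* had 40.8 ± 13.1 (SD, n = 3) CPM in WT and 4.18 ± 5.94 (SD, n = 3) CPM in cKO, without overlap (log2 fold change -3.18, adjusted p = 0.0608). The 9 monocyte and neutrophil markers summed to 78.6 to 125 CPM in WT and 54.6 to 87.6 CPM in cKO. Of the 7 tested none was called, 2 had an unadjusted p under 0.05, and the median log2 fold change was -0.39. The 8 T cell markers summed to 198 to 309 CPM in WT and 249 to 270 CPM in cKO, with none called and a median of 0.02. The part of these cells in the levels of *Nlrc4* and *Naip2* was not tested. Both genes had higher levels in CD103-CD11b+ than in CD103+CD11b- DCs of each genotype, on average, in these data.

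**Figure D4:**
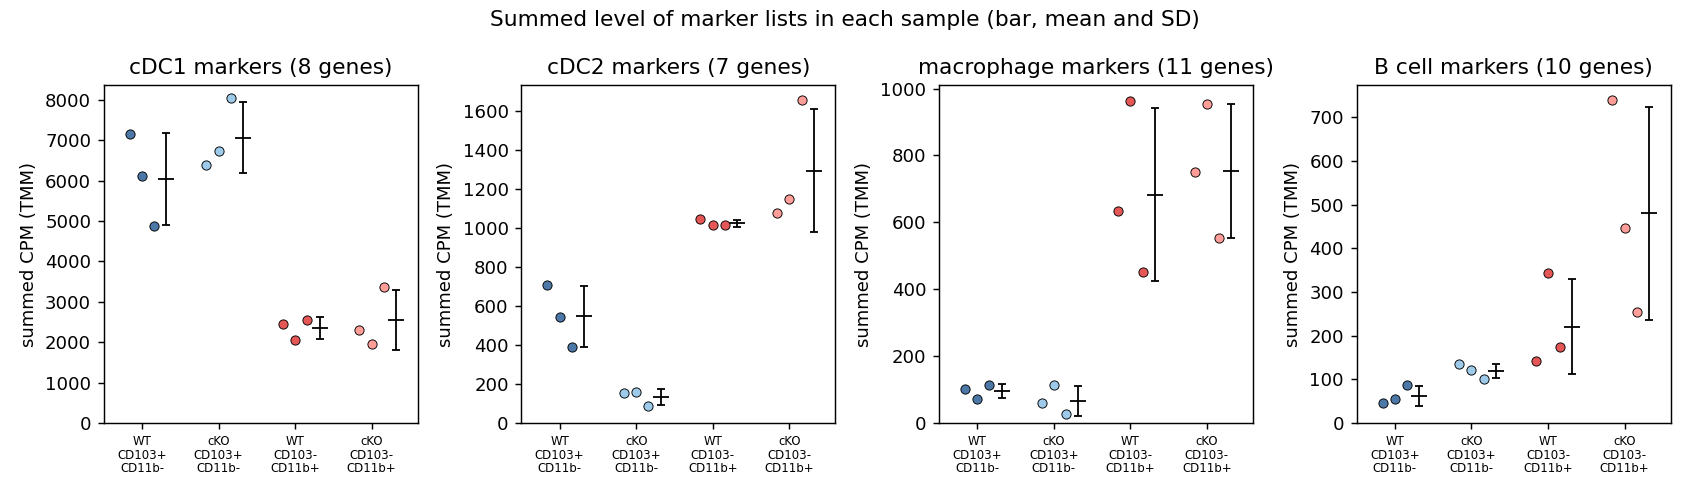
Summed CPM of the cDC1, cDC2, macrophage and B cell marker lists in each of the 12 samples (linear axes from 0), with the mean and SD of each group. The cDC2 sum lies at 87.6 to 161 CPM in cKO CD103+CD11b- DCs, below the 391 to 707 CPM of WT, and the macrophage sum is higher in all 6 samples of CD103-CD11b+ DCs than in the other 6.

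The difference between the subsets of the genotype effect was then tested as an interaction. *Nlrc4* and *Naip2* had log2 fold changes of opposite sign, negative in CD103+CD11b- and positive in CD103-CD11b+ DCs, and the log2 difference of the effects was 1.88 (SE 0.39, adjusted p = 0.0673) for *Nlrc4* and 1.59 (SE 0.34, adjusted p = 0.0695) for *Naip2*. None of the 10 members passed the threshold by edgeR, against 0.651% of all genes tested (0.554% higher and 0.0972% lower), but 5 of 10 had an unadjusted p under 0.05 against 11.1%, all with a positive difference, the log2 fold change in CD103-CD11b+ DCs minus that in the other subset (*Nlrc4*, *Naip2*, *Aim2*, *Naip5* and *Nlrp1b*). With DESeq2 3 members passed.

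Both results lay near the threshold. *Nlrc4* passed with no filter on low counts (adjusted p = 0.0455), with DESeq2 (0.00513), with a replicate block (0.0400), without WT CD103+CD11b- replicate 3 (0.0398) and without WT CD103-CD11b+ replicate 1 (0.0290). *Naip2* passed with no filter (adjusted p = 0.0369), with 5 or more counts in every sample (0.0483), with DESeq2 (0.00390) and without WT CD103-CD11b+ replicate 1 (0.0345). *Aim2* passed with DESeq2 (0.0453) and without WT CD103-CD11b+ replicate 1 (0.0352). When the replicate number was blocked inside each genotype, *Nlrc4* (adjusted p = 0.0162) and *Naip2* (adjusted p = 0.00973) passed in edgeR. That block pairs the WT samples too, where replicate 2 of the 2 subsets correlated at -0.152 in deviations from the group means. For *Aim2*, *Naip5* and *Nlrp1b* the log2 difference in the main model was 0.84, 0.84 and 0.91. For *Pycard* and *Gsdmd* it was -0.02 and 0.13, with SEs of 0.25 and 0.30.

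In each genotype the subsets were also compared. These comparisons use the same samples as those between genotypes, so their values are not separate evidence. In WT mice, CD103-CD11b+ DCs had more *Nlrc4*, *Casp4* and *Casp1* and less *Nlrp1b* than CD103+CD11b- DCs. *Casp4* had 19.8, 11.7 and 14.9 CPM in CD103+CD11b- and 30.5, 59.6 and 59.0 CPM in CD103-CD11b+ DCs. *Casp1* had 15.4, 11.2 and 6.95 CPM in CD103+CD11b- and, as above, 27.0, 19.7 and 19.8 CPM in CD103-CD11b+ DCs. For both genes every CD103-CD11b+ sample lay higher. In all, 5 of the 10 members did not overlap between the subsets, against 38.1% of all genes tested. The log2 fold change was 1.69 (SE 0.35, adjusted p = 0.00995) for *Casp4*, 1.01 (SE 0.26, adjusted p = 0.0247) for *Casp1*, 1.52 (SE 0.27, adjusted p = 0.00480) for *Nlrc4* and -0.81 (SE 0.24, adjusted p = 0.0377) for *Nlrp1b*. Thus 3 members were called higher and 1 lower, against 11.8% and 7% of all genes tested, 18.8% in all, and 7 of 10 had an unadjusted p under 0.05, against 34.3%.

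The *Nlrc4* difference passed whichever single sample was left out, with a log2 fold change from 1.17 to 1.81. *Nlrp1b* did not pass without WT CD103+CD11b- replicate 1 (adjusted p = 0.0868) or 2 (0.108), or without WT CD103-CD11b+ replicate 2 (0.0903) or 3 (0.0826). *Casp1* did not pass without WT CD103+CD11b- replicate 2 (adjusted p = 0.0956) or 3 (0.0659), or without WT CD103-CD11b+ replicate 1 (0.0831) or 2 (0.0517). *Casp4* did not pass without WT CD103+CD11b- replicate 2 (adjusted p = 0.0521). In a fit to the 6 WT samples the adjusted p was 0.0793 for *Nlrp1b* and 0.0866 for *Casp1*. The remaining members were not called, among them *Aim2*, which did not overlap between subsets and was lower in CD103-CD11b+ DCs with a log2 fold change of -0.47 (SE 0.16, adjusted p = 0.0630). *Aim2* passed with edgeR's filterByExpr (adjusted p = 0.0457), with the replicate block (0.0336), with the block within genotype (0.0450) and without WT CD103-CD11b+ replicate 1, where its log2 fold change was -0.72 (adjusted p = 0.00954).

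In cKO mice 6 of the 10 members were called higher in CD103-CD11b+ DCs and none lower, against 9.26% and 6.81% of all genes, 16.1% in all. *Nlrc4* differed by 10.6-fold, with a log2 fold change of 3.40 (SE 0.30, adjusted p = 3.24e-05), and *Naip2* by 4.44-fold, with 2.15 (SE 0.25, adjusted p = 1.96e-04). *Casp1* had a log2 fold change of 1.67 (SE 0.27, adjusted p = 0.00161). These 3 were called whichever single sample was left out. An unadjusted p under 0.05 was reached by 8 of 10 members, against 31.9% of all genes. The groups of 8 of 10 members did not overlap, all higher in CD103-CD11b+ DCs, against 34% of all genes tested.

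*Nlrp3*, *Casp4* and *Naip5* were called in cKO mice as well, with log2 fold changes of 1.44 (SE 0.38, adjusted p = 0.0245), 1.3 (SE 0.35, adjusted p = 0.0255) and 0.83 (SE 0.21, adjusted p = 0.0186). Each of these calls was lost when certain single samples were left out. *Nlrp3* did not pass without cKO CD103+CD11b- replicate 1 (adjusted p = 0.0931) or 2 (0.0885), and without cKO CD103-CD11b+ replicate 3 its log2 fold change was 0.87 (adjusted p = 0.0629). In a fit to the 6 cKO samples the adjusted p of *Nlrp3* was 0.0722. *Casp4* did not pass without cKO CD103+CD11b- replicate 1 (adjusted p = 0.0883) or 3 (0.0885), or without cKO CD103-CD11b+ replicate 2 (0.0657) or 3 (0.0658). *Naip5* did not pass without cKO CD103+CD11b- replicate 2 (adjusted p = 0.0696) or 3 (0.0610), or without cKO CD103-CD11b+ replicate 3 (0.0513). *Nlrp1b*, lower in CD103-CD11b+ DCs of WT mice, had a log2 fold change of 0.11 (SE 0.23, adjusted p = 0.799) in cKO mice.

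Markers of other cells also differed between the subsets. *Casp1*, *Casp4* and *Nlrc4* were called higher in CD103-CD11b+ DCs of both genotypes, and *Naip2* in cKO mice. The 11 macrophage markers summed to 72.1 to 114 CPM in WT CD103+CD11b- and 452 to 964 CPM in WT CD103-CD11b+ DCs, and 26.6 to 114 CPM and 553 to 954 CPM in the cKO subsets, and 9 of 11 were called higher in CD103-CD11b+ DCs in each genotype. In WT CD103-CD11b+ DCs the macrophage markers *Csf1r* and *Adgre1* had means of 275 ± 58.3 (SD, n = 3) and 51.9 ± 23.2 (SD, n = 3) CPM, and none of the 11 was at 0 in all samples of any group. The monocyte and neutrophil markers summed to 78.6 to 125 CPM in WT CD103+CD11b- and 202 to 256 CPM in WT CD103-CD11b+ DCs, with 3 of 7 called higher and 1 lower, and to 54.6 to 87.6 CPM and 218 to 254 CPM in the cKO subsets, with 3 of 7 called higher. The B cell markers summed to 45.1 to 88.3 CPM and 142 to 344 CPM in the WT subsets, with 1 of 10 called higher, and to 102 to 135 CPM and 255 to 739 CPM in the cKO subsets, with 5 of 10 called higher and a median log2 fold change of 2.81. Of the 8 T cell markers 6 had positive log2 fold changes in WT and 7 in cKO mice, with medians of 0.69 and 1.38 and none called higher, and *Cd8a*, which cDC1s also express, was called lower in each. The epithelial markers had positive values for 9 of 9 tested in WT mice, with 2 (*Vil1* and *Krt8*) called higher and a median of 1.59, and for 4 of 9 in cKO mice, with 1 (*Epcam*) called higher and a median of -0.61. The part of these cells in the subset differences was not tested.

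**Figure D5:**
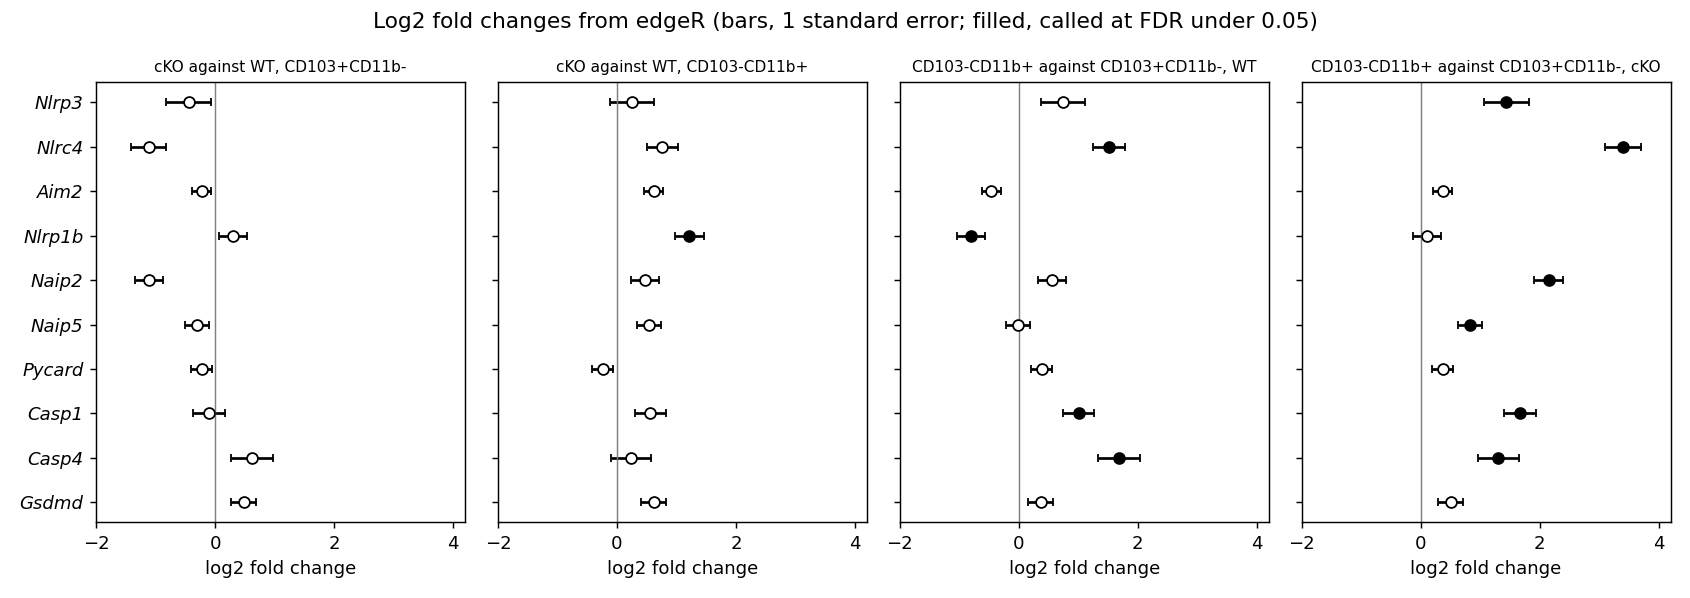
Log2 fold change of each member with 1 standard error (computed from the F-test) in 4 comparisons, cKO against WT in each subset and CD103-CD11b+ against CD103+CD11b- DCs in each genotype, with filled points for genes called by edgeR. *Nlrp1b* alone is filled in the second panel, 4 members in the third and 6 in the fourth, where *Nlrc4* reaches 3.40.

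The other genes of the pathway were taken from lists of 54 genes, of which 49 passed the count minimum. Among further sensors, *Mefv* (pyrin) and the AIM2-like genes *Mndal* and *Ifi203* fell in cKO CD103+CD11b- DCs, in the same samples where *Nlrc4* and *Naip2* were low. Their log2 fold changes were -1.79 (SE 0.33, adjusted p = 0.0355), -1.34 (SE 0.16, adjusted p = 0.00436) and -1.44 (SE 0.22, adjusted p = 0.0140). With *Tlr5*, 4 of 49 were called lower in CD103+CD11b- DCs, against 0.797% of all genes tested, and 1 higher, against 0.224%. The gene called higher was the caspase-1 inhibitor *Serpinb1a* with 1.21 (SE 0.24, adjusted p = 0.0473). *Mndal* had 41.4, 48.5 and 32.5 CPM in WT and 18.4, 15.4 and 14.1 CPM in cKO CD103+CD11b- DCs, and 77.9, 84.0 and 75.0 CPM and 106, 105 and 109 CPM in CD103-CD11b+ DCs. The interaction was called higher for 2 of 49, against 0.554% of all genes, *Mndal* with 1.78 (SE 0.22, adjusted p = 0.00986) and *Ifi203* with 1.63 (SE 0.30, adjusted p = 0.0431). Sequence shared between paralogs of this family was not measured, so reads may be lost or shared between them to an unknown extent.

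The substrates of caspase-1 differed from each other. *Il18* had 5.68, 5.33 and 2.33 CPM in WT and 29.4, 34.5 and 33.7 CPM in cKO CD103-CD11b+ DCs, with a log2 fold change of 2.85 (SE 0.39, adjusted p = 0.00656). *Il1b* had 297, 313 and 403 CPM and 228, 303 and 530.3 CPM there, groups that overlapped, with 0.07 (SE 0.30, adjusted p = 0.943). In CD103+CD11b- DCs *Il1b* had 202, 135 and 155 CPM in WT and 47.7, 64.4 and 86.8 CPM in cKO samples, with every cKO sample lower and a log2 fold change of -1.31 (SE 0.31, adjusted p = 0.0862). *Il18* had 0.684, 1.83 and 1.94 CPM in WT and 4.66, 3.17 and 5.87 CPM in cKO CD103+CD11b- samples, levels near the value of a few reads, with 1.52 (SE 0.43, adjusted p = 0.151). *Zbp1*, a sensor of Z-form nucleic acids that can engage caspase-8 and RIPK3, rose with *Il18* in cKO CD103-CD11b+ DCs with a log2 fold change of 1.26 (SE 0.23, adjusted p = 0.0233), and these were the 2 of 49 called higher there, against 1.11% of all genes tested, with 0 called lower, against 0.5%. An unadjusted p under 0.05 was reached by 10 of 49, against 17.4% of all genes.

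Between subsets the guanylate binding proteins, which coat bacteria and expose lipopolysaccharide to caspase-11, were higher alongside *Casp4*. In WT mice *Gbp2*, *Gbp3*, *Gbp5*, *Gbp7* and the immunity-related GTPase *Gm12250* (Irgb10) were higher in CD103-CD11b+ DCs, with log2 fold changes of 2.06, 2.62, 1.19, 2.77 and 2.23. In all, 15 of 49 were called higher in WT mice, against 11.8% of all genes, and 5 lower, against 7% of all genes. The others higher were *Tlr4* (2.57), *Txnip* (0.87), *Mefv* (1.11), *Mndal* (0.95), *Ifi203* (1.5), *Casp8* (0.82), *Mlkl* (3.29), *Zbp1* (0.92), *Il1b* (1.04) and *Il18* (1.51). Those lower were *Irf8* (-2.20), a cDC1 factor, *Pstpip1* (-0.84), *Sharpin* (-0.77), *Trim30a* (-0.60) and *Gsdme* (-0.48).

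In cKO mice 18 of 49 were called higher in CD103-CD11b+ DCs, against 9.26% of all genes, and 5 lower, against 6.81% of all genes. Called in cKO but not in WT mice were *Nlrp10* (4.56), *Tlr5* (3.94), *Panx1* (1.36), a channel upstream of NLRP3, *Ninj1* (1.06), which ruptures the dying cell's membrane, and *Nek7* (0.40), which NLRP3 binds, all higher, and *Ifi205* (-2.0) and *Serpinb1a* (-0.79), both lower. In cKO CD103+CD11b- samples *Nlrp10* had 2, 1 and 0 reads and *Tlr5* 5, 3 and 0, so the sizes of their values depend on few reads. Called in WT but not in cKO mice were *Txnip* (0.36 in cKO) and *Gbp5* (0.63), higher in WT CD103-CD11b+ DCs, and *Pstpip1* (-0.42) and *Gsdme* (-0.35), lower there. *Il1b* (2.42) and *Il18* (2.84) were higher in both genotypes, and of the 11 genes called in only 1 genotype none had a called interaction.

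Promoter sequence was read from RefSeq windows of 250 bases before each start (GRCm38.p6), since Cbfβ acts through Runx proteins bound to DNA. Windows matched 9 of the 10 members with 12 start sites, with none for *Gsdmd*. The Runx core was searched as TGTGGT and TGCGGT on both strands, which as its reverse complement reads ACCACA or ACCGCA. It occurred in 3 of the 12 windows, those of *Nlrc4* (2 matches to TGTGGT), *Naip2* (1) and *Nlrp1b* (1), and of all 32851 promoter windows 18.6% hold either form, 14.0% TGTGGT and 5.10% TGCGGT. The Ets-IRF composite element, bound by PU.1 with IRF4 or IRF8, was in none of the 12 windows and in 2.30% of all. These are matches of letters and not shown to be bound. The 3 windows are printed because they hold the motif, which stands in capitals, from base -250 to base -101 counted from the start, 5′ to 3′ on the strand of the gene.
*Nlrc4*, chr17:74459209-74459358, minus strand: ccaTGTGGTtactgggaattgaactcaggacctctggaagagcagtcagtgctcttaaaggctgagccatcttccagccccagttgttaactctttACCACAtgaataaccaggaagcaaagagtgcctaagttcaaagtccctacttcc
*Naip2*, chr13:100202223-100202372, minus strand: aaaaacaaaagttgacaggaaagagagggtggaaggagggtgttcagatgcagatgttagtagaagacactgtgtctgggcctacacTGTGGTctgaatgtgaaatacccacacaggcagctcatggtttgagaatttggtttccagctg
*Nlrp1b*, chr11:71230834-71230983, minus strand: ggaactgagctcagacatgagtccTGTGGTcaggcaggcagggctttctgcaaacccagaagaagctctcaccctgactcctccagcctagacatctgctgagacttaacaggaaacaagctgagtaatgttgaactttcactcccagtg

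In *Nlrc4* the matches lie at bases -247 to -242 on the gene's strand and -154 to -149 on the other, in *Naip2* at -163 to -158 and in *Nlrp1b* at -226 to -221. In the annotation (GENCODE M21, GRCm38) *Nlrc4* lies on chromosome 17 from 74425438 to 74459142, *Naip2* on chromosome 13 from 100144063 to 100202092 and *Nlrp1b* on chromosome 11 from 71153102 to 71230733, all on the minus strand. *Casp1* (5298517 to 5307265) and *Casp4* (5308828 to 5336783), which were both higher in CD103-CD11b+ DCs, are neighbours on the plus strand of chromosome 9. *Naip5* lies on chromosome 13 from 100211739 to 100246323, *Nlrp3* on chromosome 11 from 59541568 to 59566956, *Aim2* on chromosome 1 from 173350879 to 173466040, *Gsdmd* on chromosome 15 from 75862327 to 75867408 and *Pycard* on chromosome 7 from 127989708 to 127993867. Exons of *Pycard* overlap those of *Gm45205* on the other strand over 485 bases, and as the counting ignored strand, reads there cannot be told apart.

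For the 3 members with the highest mean level per kilobase, the genes most alike in pattern were sought by the Pearson correlation of log2 CPM over the 12 samples among 12644 genes with a mean of at least 5 CPM. The samples share libraries and group differences, so these values only describe. *Nlrp1b* was most like its neighbour *Nlrp1c-ps* (r = 0.978), then *Usp38* (0.945) and *Arhgap4* (0.938), and 1.45% of its 50-base stretches occur in another gene. *Nlrp3* was most like *Tatdn2* (0.969), *Gm43963* (0.963) and *Arl8b* (0.958), and *Gsdmd* most like *Siglecf* (0.931), *Tlr1* (0.928) and *E230029C05Rik* (0.923).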

How the data were processed

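Per the labels and the study's methods, small numbers of sorted DCs gave full-length RNA libraries by a modified single-cell protocol. The authors trimmed the reads with Trim Galore, mapped them with STAR 2.7 to mm10 with an Ensembl GRCm38 annotation, removed reads of low mapping quality and duplicates, and counted them on genes with HTSeq without strand. The authors deposited these raw counts in 1 table per sample, without normalization. The submitters' processing notes also name CASAVA 1.8.

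The 5 summary lines of each table were left out. Of a sample's reads, 32.7% to 38.8% were counted on genes and 59.7% to 66.1% fell on no gene. Of 53801 identifiers, 53706 matched GENCODE M21, which gave symbols, positions and exon lengths, and 1 of 132 listed symbols was unmatched. Genes that reached 5 counts in any of the 12 samples were scaled by TMM and fitted in 1 model of the 4 groups. Contrasts were tested in edgeR 4.0.16 (with limma 3.58.1 and R 4.3.3) by quasi-likelihood, p-values were adjusted after Benjamini and Hochberg over all genes, and genes were called at an adjusted p under 0.05 and a fold change over 1.3. The fit was tested on simulated data. Alternatives were RLE factors, other count filters, DESeq2 1.42.0, fits to 6 samples, a replicate block, such a block within genotype, and leaving out each sample. Tables, permutation tests and plots used Python 3.11.15, pandas 2.3.3, scipy 1.17.1 and matplotlib 3.10.9.

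All members are named. Other pathway genes are named where they were called in at least 1 comparison, with *Il1b* and *Il18* in any case. The members and lists were chosen with earlier results of these data known. The replicate numbers occur in all groups. Same-numbered samples of the 2 subsets correlated in their deviations from the group means at 0.183, 0.527 and 0.469 in cKO mice. All were over 0.1, so these were treated as paired in the block within genotype, while the main tests used no block. Samples of different number in the 2 subsets of a genotype ran from -0.590 to 0.463, so a value over 0.1 does not establish a pairing. In WT mice the values were 0.512, -0.152 and 0.407, and between genotypes at least 1 pair of each subset was below 0. The study describes samples sorted from 3 different mice. Where replicates share more than the labels say, p-values measure only the spread between these samples.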

Additional observations from a re-analysis of the deposited data

Results flagged for a closer look

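For 3 genes the effect of cKO stood apart between the subsets. For *Nlrc4* all cKO samples lay below WT in CD103+CD11b- DCs and above WT in CD103-CD11b+ DCs, and the log2 difference of the effects was 1.88 (SE 0.39, adjusted p = 0.0673 by edgeR's quasi-likelihood test), which did not pass the threshold. It passed with DESeq2 (adjusted p = 0.00513), with the replicate block (0.0400) and with the block within genotype (0.0162). For the AIM2-like genes *Mndal* and *Ifi203* the test of the difference itself passed, with 1.78 (SE 0.22, adjusted p = 0.00986) and 1.63 (SE 0.30, adjusted p = 0.0431). *Mndal* was lower in 3 of 3 cKO samples of CD103+CD11b- DCs and higher in 3 of 3 of CD103-CD11b+ DCs. *Ifi203* was lower in 3 of 3 cKO samples of CD103+CD11b- DCs and overlapped WT in CD103-CD11b+ DCs.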

How the results depend on the processing

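For cKO against WT in CD103-CD11b+ DCs, 228 genes were called higher and 103 lower. The count higher was 364 with 5 or more counts in every sample, 659 with DESeq2, 27 in the 6-sample fit and 560 with the replicate block, and 87 to 307 without single samples. The count lower was 160 with edgeR's filterByExpr, 209, 477, 2 and 289 in those settings, and 34 to 210 without single samples. Members called higher numbered 2 with DESeq2, 0 in the 6-sample fit, 2 with the replicate block, and 0 to 2 without single samples.

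In CD103+CD11b- DCs 46 genes were called higher and 164 lower. The count higher was 220 with DESeq2, 78 in the 6-sample fit, 124 with the replicate block and 5 to 36 without single samples. The count lower was 261 with no filter, 435 with DESeq2, 398 with the block and 39 to 217 without single samples. Members called lower numbered 1 with no filter, 1 with 5 or more counts in every sample, 1 with DESeq2, and 0 to 1 without single samples.

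For the interaction 114 genes were called higher and 20 lower. The count higher was 172 with no filter, 333 with DESeq2, 268 with the replicate block, 250 with the block within genotype, and 29 to 154 without single samples. The count lower was 33, 169, 62 and 78 in those settings and 0 to 56 without single samples. Members called higher numbered 2 with no filter, 1 with 5 or more counts in every sample, 3 with DESeq2, 1 with the block, 2 with the block within genotype, and 0 to 3 without single samples.

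Between subsets in WT mice, 2419 genes were called higher and 1441 lower. The count higher was 1443 with 5 or more counts in every sample and 679 to 2448 without single samples. The count lower was 893 in the 6-sample fit and 731 to 1692 without single samples. Members called lower numbered 2 with filterByExpr, 0 in the 6-sample fit, 2 with the block, 2 with the block within genotype, and 0 to 2 without single samples. Members called higher numbered 5 with the block within genotype (*Nlrp3*, adjusted p = 0.0182, and *Naip2*, adjusted p = 0.00973, were added) and 1 to 3 without single samples. In cKO mice 1905 genes were called higher and 1402 lower, with 1145 to 2206 and 955 to 1432 without single samples, and 3 to 6 members higher. For the cKO samples the block within genotype changed no call of a member in that comparison. With the replicate number as a block over all groups, *Aim2* (adjusted p = 0.0336) and *Nlrp3* (adjusted p = 0.0459) passed between WT subsets and *Gsdmd* (adjusted p = 0.0386) between cKO subsets.

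Small differences that were not called changed sign. *Naip5* between WT subsets was 0.0159 with RLE factors, 0.0414 with 5 or more counts in every sample and 0.0209 with DESeq2, and -0.29 to 0.0537 without single samples. Without single samples the log2 value ran from -0.36 to 0.19 for *Casp1* between genotypes in CD103+CD11b- DCs, from -0.00399 to 0.46 for *Casp4* and from -0.32 to 0.54 for *Nlrp3* in CD103-CD11b+ DCs, from -0.0424 to 0.32 for *Gsdmd* and from -0.15 to 0.0864 for *Pycard* in the interaction, and from -0.0947 to 0.22 for *Nlrp1b* between cKO subsets. Of 730 values of single members under alternatives, 656 kept direction and side of the threshold, 28 passed that had not, 27 no longer passed and 19 changed sign. The cause of these changes was not tested. *Nlrc4* in cKO CD103+CD11b- DCs rests on 14 to 20 reads a sample, which limits its precision.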
